A study of Andropogon gerardi with 36 samples.

Results

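Sod4A is a maize gene for superoxide dismutase, and it was followed here in big bluestem (Andropogon gerardi), a prairie grass, on 2-colour arrays made for maize. The gene was taken as every probe whose single symbol in the annotation of the array platform was Sod4A, with Entrez Gene number 542377. That gave 20 of 19200 probes. In all, 1800 probes had 1 symbol and they carried 583 symbols.

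The study asked how warming and altered soil moisture act on transcript levels in plants of 12 sheltered plots at the Konza Prairie station in Kansas. Total RNA of a plot was labelled with Cy5 or Cy3 and hybridised together with RNA of a partner plot, so that each value is the ratio of a pair of plots on 1 array. The 12 plots formed 6 pairs. Plots 2 and 3 and plots 6 and 9 had 8 arrays each, plots 4 and 5 had 7, plots 7 and 10 and plots 11 and 12 had 4 each, and plots 13 and 15 had 3. Of these 34 arrays, 11 were from June, 6 from each of 2 July samplings that the labels call JulyA and JulyB, and 11 from August. An array held subplot 1 of both plots or none of it. The arrays without it are called those of subplots 2 and 4: they set subplot 4 of both plots together in plots 6 and 9 and in plots 7 and 10, subplot 2 of both in plots 11 and 12 and in plots 13 and 15, and subplot 2 of the one plot with subplot 4 of the other in plots 2 and 3 and in plots 4 and 5. All plants grew under rainout shelters. Not given in the sources used here were the treatment of each plot and subplot, the tissue, the age of the plants and the meaning of the letter in a plant code.

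Values are log2 ratios of the lower-numbered plot over the higher-numbered plot, with Cy5 taken as the numerator of the deposited values. That direction is not stated, so a sign serves to compare arrays and does not show which plot had the higher level. Nothing in the labels says that arrays of a pair came from separate plants, so p-values measure the spread between these arrays. In bulk RNA such as this, fewer cells of a type and less RNA per cell cannot be told apart.

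Superoxide dismutases convert superoxide, a reactive by-product of photosynthesis and respiration, into hydrogen peroxide and oxygen. The hydrogen peroxide is then removed by catalases and peroxidases. In plants the family is divided by metal cofactor into copper-zinc, manganese and iron enzymes, and Sod4A encodes a cytosolic copper-zinc form in maize. Heat, drought and strong light are known to raise the formation of superoxide in leaves. Maize carries a nearly identical cytosolic isozyme, Sod4, and whether the probes tell these copies or their bluestem counterparts apart was not tested, so the values are those of transcripts that hybridise to Sod4A probes. A list of other antioxidant genes, among them catalases, ascorbate peroxidases and glutathione transferases, was searched in the gene symbols alone and matched 0 further symbols. Many symbols are locus numbers that name no function, so the search cannot show whether the array holds such genes. The pathway around Sod4A could therefore not be described.

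Sod4A was measured more often than the array at large. Of its 20 probes, 12 had a value on at least 28 of the 34 arrays, which is 60% of them, against 8.82% of all probes and 24.4% of the probes with 1 symbol. These 12 entered the tests on single probes. Not given in the sources used here was the reason why a probe has no value on an array. Probes 5774 and 7673 were measured on 33 arrays each, and probes 1777, 4203 and 11352 on 31 each. The remaining tested probes, 1729, 3228, 3758, 7316, 8120, 10018 and 16057, had values on 28 to 30 arrays. Below the limit of 28 arrays lay probe 4086 with 26 arrays, probe 12541 with 24 and probe 16968 with 19. The other 5 were rarely seen: probes 8865 and 12090 on 6 arrays each, 8755 and 12500 on 2 each, and 5177 on 1.

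Detection of Sod4A was lowest in June. June arrays had a value for 11.5 ± 3.47 Sod4A probes (mean and SD, n = 11), JulyA arrays for 14.3 ± 0.52 (n = 6), JulyB arrays for 13.7 ± 1.97 (n = 6) and August arrays for 14 ± 1.48 (n = 11). As a share of the 20 probes this was 57.7%, 71.7%, 68.3% and 70%. The numbers differed between times in a two-sided permutation test that permuted times within pairs (p = 0.0272, 100000 permutations).

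The low June mean came from a few arrays. On 4 June arrays 9 or fewer Sod4A probes had a value, and each of the other 30 arrays had at least 11. These were both June arrays of plots 11 and 12, with 6 probes each, the June array of subplots 2 and 4 in plots 4 and 5, with 9, and the June array of subplot 1 in plots 6 and 9, also with 9. Without the June arrays of plots 11 and 12 the permutation p was 0.486. Leaving out 1 array at a time gave 0.00928 to 0.103, with 0.103 without either June array of plots 11 and 12, 0.0634 without the named array of plots 4 and 5 and 0.0611 without that of plots 6 and 9. The same 4 arrays were low for the array as a whole, with values for 11.5%, 13.1%, 17.1% and 14.1% of all probes.

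**Figure D1:**
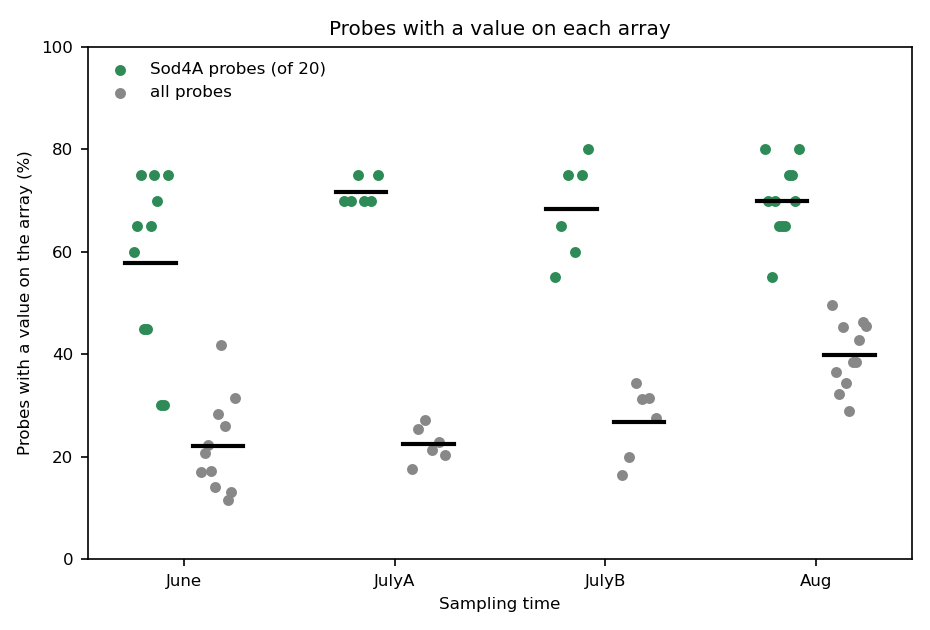
Percent of the 20 Sod4A probes and of all 19200 probes with a value on each of the 34 arrays, by sampling time, with 1 point per array and kind of probe and black bars for means. August means were 70% for Sod4A and 39.9% for all probes, and on each array the Sod4A share was the higher.

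Over the season the share of all probes with a value took another course than that of Sod4A. June arrays had a mean of 22.1%, JulyA arrays 22.4%, JulyB arrays 26.8% and August arrays 39.9%. The Sod4A share exceeded it by 35.6 ± 11.3 percentage points on June arrays (SD, n = 11), by 49.2 ± 3.68 on JulyA arrays (n = 6), by 41.5 ± 7.91 on JulyB arrays (n = 6) and by 30.1 ± 5.02 on August arrays (n = 11). This gap was positive on all 34 arrays and differed between times in the same permutation test (p = 0.00183). Mean detection of Sod4A moved by less than 1 probe between JulyA, JulyB and August. The array as a whole had its highest share of values in August. Of the Sod4A probes 60% had a value on at least 28 arrays, against 8.82% of all probes. Sod4A was not compared with other probes measured as often. Whether such probes took the same course was not tested, so the gap and its p do not mark a trait of Sod4A.

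The tested probes ran alike over the arrays. Their 66 pairwise uncentred correlations over arrays, taken about 0 and so independent of the direction of the ratio, had a median of 0.609 and ran between 0.367 and 0.862. Against 427 probes of other symbols with values on at least 28 arrays the median of 5124 such correlations was -0.032. These figures describe probes that share the same 34 arrays, and they carry no test. Among 22 other symbols with at least 5 probes on 28 or more arrays the median agreement was 0.661, and 8 of them lay below Sod4A. Agreement of this size was thus common among genes with several probes.

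Single probes followed the mean of the other tested probes to different degrees. Probe 8120 had an uncentred correlation of 0.877 with it, probe 3228 0.818 and probe 7673 0.809. The lowest of the 12 was probe 1729, at 0.660. Of the less often measured probes, 4086 with 0.754 and 12541 with 0.664 lay in the range of the tested ones. Probe 16968 did not, with 0.056 over 19 arrays and a mean of 0.26 ± 0.51 (SD, n = 19). Probes 8865 and 12090 had -0.072 and -0.077 over 6 arrays each.

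**Figure D2:**
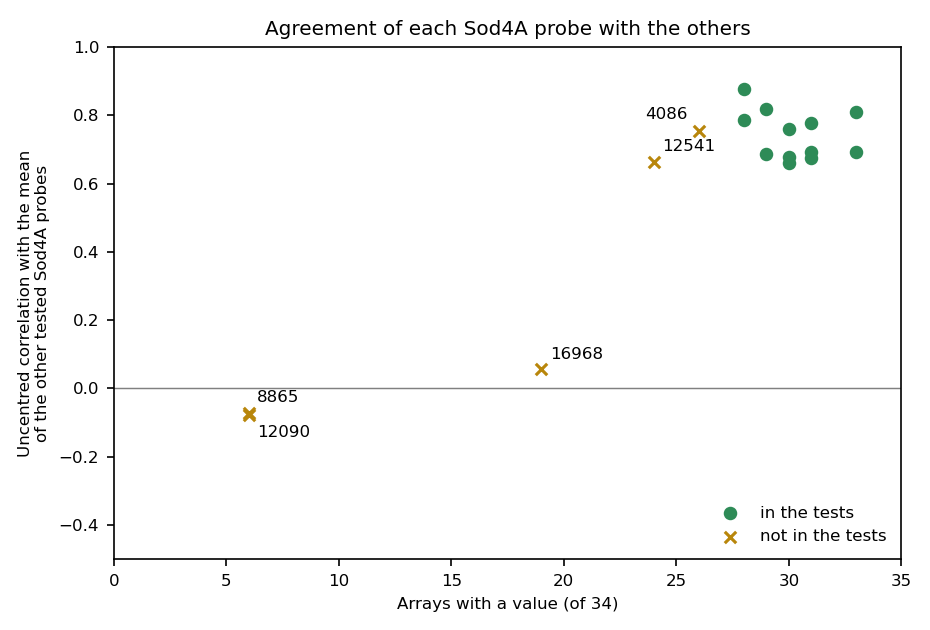
Uncentred correlation of each Sod4A probe with the mean of the other tested Sod4A probes, against the number of arrays with a value, with 1 point per probe measured on at least 6 arrays. The 12 tested probes lie between 0.660 and 0.877, and probe 16968 with 19 arrays lies near 0.

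The array mean of Sod4A, taken over all its probes with a value, changed sign between arrays. It was above 0 on 17 arrays and below 0 on 17, from -0.61 to 0.58. Its size had a median of 0.23 and a largest value of 0.61, a ratio of 1.52. On 9 arrays it was under 0.1 in size and on 6 over 0.5. Probes of 1 array had an SD of 0.304 around their mean, and the means of the 34 arrays an SD of 0.360, both over the tested probes. On 10 arrays every tested probe with a value lay on the same side of 0, above it on 4 and below it on 6.

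Sod4A varied less than most symbols that could be compared. The SD of its mean over arrays was 0.335, against a median of 0.50 over the 125 symbols with a mean on at least 28 arrays, and 106 of the other 124 symbols had a larger SD. Among the 67 symbols with at least 5 probes, 51 had a larger SD. Sod4A has 20 probes and most of the symbols compared have fewer. The part that averaging over probes plays in these counts was not tested. Single probe values were seldom large. Of 449 Sod4A values 19 were 1 or more in size, and 13 of these came from August, several of them from the same array.

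In plots 2 and 3, the subplot 1 arrays of June, JulyA, JulyB and August had Sod4A means of -0.42, 0.24, -0.49 and 0.53. The arrays of subplots 2 and 4 had 0.16, 0.29, 0.00 and -0.17 at the same times. The August array of subplot 1 and both JulyB arrays had plot 2 in Cy3 and were turned, and the signs of these values rest on that. As deposited the subplot 1 means were -0.42, 0.24, 0.49 and -0.53. On the turned August array of subplot 1 all 16 probes with a value were positive, against 0 of 12 in June.

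In plots 4 and 5, subplot 1 had -0.36 in June, -0.29 in JulyA and 0.03 in JulyB. Subplots 2 and 4 had 0.06, -0.20, 0.13 and, in August, 0.46. The August array was the highest of the pair, and 10 of its 11 measured Sod4A probes were positive. In subplot 1 in June, 14 of 15 probes were negative.

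In plots 6 and 9, subplot 1 had -0.08 in June and again in JulyA, 0.22 in JulyB and 0.27 in August. Subplots 2 and 4 had 0.35, 0.06, -0.37 and -0.56. The arrays of subplot 1 thus ended higher than they began and those of subplots 2 and 4 ended lower. In August 11 of 12 tested probes were positive in subplot 1, and 0 of 11 in subplots 2 and 4.

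The other pairs were sampled in August and June alone. In plots 7 and 10, subplot 1 had -0.61 in August and -0.20 in June, and subplots 2 and 4 had 0.53 in August and 0.04 in June. In plots 11 and 12, subplot 1 had -0.05 in August and 0.58 in June, and subplots 2 and 4 had -0.00 and -0.19. In plots 13 and 15, subplot 1 had 0.54 in August, and subplots 2 and 4 had -0.21 in August and -0.46 in June. The lowest mean of all was that of subplot 1 in plots 7 and 10 in August, and the highest that of subplot 1 in plots 11 and 12 in June, which rested on 6 probes. The June array of subplots 2 and 4 and the August array of subplot 1 in plots 7 and 10 had plot 7 in Cy3 and were turned. As deposited their means were -0.04 and 0.61, so that the lowest mean is 1 of the turned values.

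**Figure D3:**
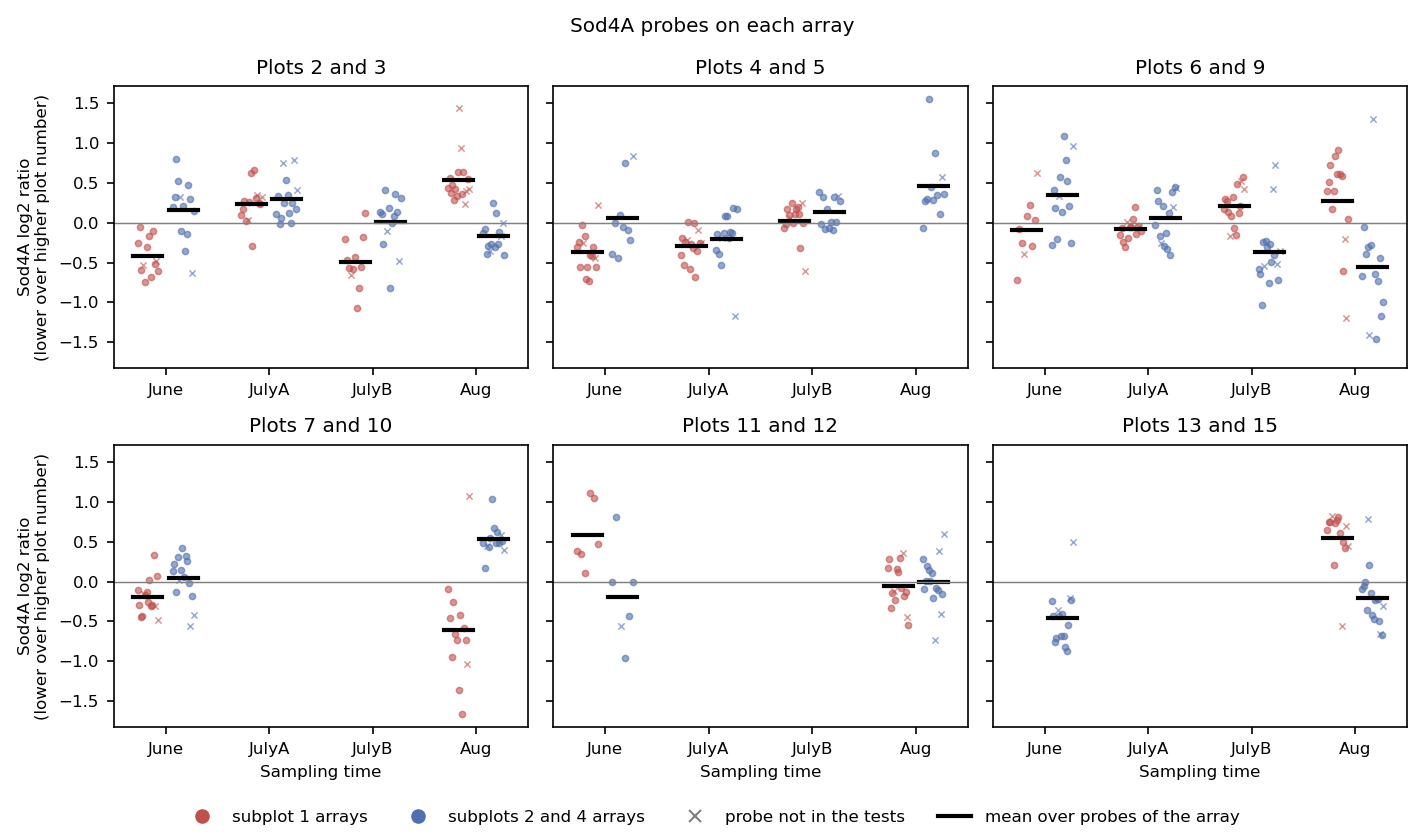
Log2 ratio of each Sod4A probe (small points) and the mean over probes (black bars) on each of the 34 arrays, by sampling time, in 1 panel per plot pair, with subplot 1 left of subplots 2 and 4. In plots 6 and 9 the mean of subplot 1 lies at 0.27 in August and that of subplots 2 and 4 at -0.56.

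No plot pair differed in Sod4A beyond the spread between its arrays. In every pair the array means fell on both sides of 0. Of them, 5 of 8 lay above 0 in plots 2 and 3, 4 of 7 in plots 4 and 5, and 4 of 8 in plots 6 and 9. The counts were 2 of 4 for plots 7 and 10, 1 of 4 for plots 11 and 12, and 1 of 3 for plots 13 and 15. In the limma model with dye orientation as a term and subplots as a random block, the estimate was -0.00 ± 0.13 (SE) in plots 2 and 3, with a 95% interval of -0.26 to 0.26. In plots 4 and 5 it was -0.10 ± 0.18, with an interval of -0.47 to 0.26, and in plots 6 and 9 it was -0.11 ± 0.17, with -0.45 to 0.24. These pairs had the most arrays, and their intervals are the narrowest.

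In plots 7 and 10 the estimate was -0.06 ± 0.19 (SE), with a 95% interval of -0.44 to 0.33. In plots 11 and 12 it was 0.00 ± 0.22, with an interval of -0.45 to 0.45. In plots 13 and 15 it was -0.13 ± 0.25, with an interval of -0.64 to 0.37. With the 5 arrays of reversed dyes left unturned and no dye term, the estimate had the other sign in plots 7 and 10, at 0.22, where 2 of the 4 arrays are of that kind, and it was 0.01 in plots 2 and 3. Reversing the direction of all ratios would turn every sign.

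The moderated F test of limma, a linear-model test that borrows variance across features, over the 6 pairs called 0 of 1359 gene-level features (0%) at an adjusted p under 0.05, a feature being a symbol or a single probe without one. An unadjusted p under 0.05 in limma was met by 7.58% of these features, and Sod4A was not among them (unadjusted p = 0.991, adjusted p = 0.998). Its estimates were also small beside those of other features. In plots 2 and 3, 1349 of the 1359 features had a larger estimate in size, and in plots 11 and 12 1355 had. In the pair where Sod4A ranked highest, plots 6 and 9, 881 were larger. Sod4A is a mean over several probes, while a feature without a symbol is a single probe. Its SE was smaller than the median SE of all features, at 0.129 against 0.176 in plots 2 and 3 and 0.222 against 0.327 in plots 11 and 12. The part that averaging plays in these ranks was not tested. The dye term was 0.08 ± 0.12 (SE, adjusted p = 0.945 in limma), a value within its error. In pairs without a turned array, such as plots 11 and 12 and plots 6 and 9, the estimate is shifted by this term. Turned ratios with no dye term gave 0.083 in plots 11 and 12, against 0.002 with it. In plots 6 and 9 they gave -0.02, against -0.11, and in plots 2 and 3 0.02, against -0.00. The ranks given are those of the fit with the dye term, and ranks without it were not tested.

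Fitted singly, 0 of the 12 tested Sod4A probes were called in the F test over pairs, where 0 of 1668 probes were called (0%). At an unadjusted p under 0.05 there were 0 Sod4A probes too, beside 7.37% of all probes. The lowest unadjusted p of a Sod4A probe in a single pair was 0.0601 for probe 1777 in plots 11 and 12, at 0.43 ± 0.22 (SE), followed by 0.0737 for probe 3228 in plots 7 and 10, at -0.52 ± 0.28. In plots 2 and 3 8 of 12 probes had a positive estimate, with a median of 0.04, where 27.6% of all probes were positive with a median of -0.09. In plots 13 and 15 10 of 12 were negative, with a median of -0.28 against 0.07 over all probes, of which 59.3% were positive. Positive estimates numbered 3 of 12 in plots 4 and 5 and in plots 6 and 9, beside 51.8% and 41.2% of all probes. They numbered 5 of 12 in plots 7 and 10 and in plots 11 and 12, beside 55.7% and 48.4%. Probes of 1 gene on the same arrays share their RNA, so these counts are not 12 separate measurements.

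The change of the plot difference of Sod4A between August and June did not pass the test in any pair. August minus June was estimated at 0.34 ± 0.46 (SE) for plots 2 and 3, at 0.62 ± 0.52 for plots 4 and 5 and at -0.27 ± 0.43 for plots 6 and 9. For plots 7 and 10 the estimate was 0.04 ± 0.43, for plots 11 and 12 it was -0.22 ± 0.43, and for plots 13 and 15 it was 0.64 ± 0.52. The estimates were thus positive in 4 pairs and negative in 2, and those of plots 4 and 5 and of plots 13 and 15 rest on 1 array at one of the times. The widest of the 95% intervals, in plots 13 and 15, ran from -0.45 to 1.72.

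In limma the F test over these August contrasts gave an adjusted p of 0.996, and the F test over all changes from June one of 0.987, and in each of them 0 of 905 features were called (0%). As deposited and with no dye term, August minus June in plots 2 and 3 was -0.22. In plots 7 and 10 the means as deposited were -0.20 in subplot 1 and -0.04 in subplots 2 and 4 in June. In August they were 0.61 and 0.53, so the small estimate of this pair rests on the turned arrays. The July changes were within their errors too: JulyA minus June was 0.40 ± 0.43 (SE) for plots 2 and 3, -0.09 ± 0.43 for 4 and 5 and -0.14 ± 0.43 for 6 and 9. JulyB minus June was -0.05 ± 0.55, 0.23 ± 0.43 and -0.21 ± 0.43 in the same pairs.

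Only 6 of the 12 tested probes had values in every combination of pair and time, which these contrasts need, and 0 of them were called in the F test over August contrasts, where 0 of 1078 probes were called (0%). An unadjusted p under 0.05 in limma was found for 2 of the 6, probe 5774 (unadjusted p = 0.0316, adjusted p = 0.998) and probe 11352 (unadjusted p = 0.0222, adjusted p = 0.998), beside 4.73% of all probes. In the F test over all times there were 0 of 6, beside 7.7%. Neither probe passed after adjustment.

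Probe 5774 had 1.56 on the August array of plots 4 and 5, against -0.71 in subplot 1 and -0.44 in subplots 2 and 4 in June. Its July values in this pair were -0.58 in subplot 1 and 0.09 in subplots 2 and 4 in JulyA, and -0.00 and 0.17 in the same order in JulyB. The August value, from 1 array, lay well above all others of the pair. The contrast of August and June was 2.15 ± 0.58 (SE), with an unadjusted p of 0.00135 and an adjusted p of 0.327 in limma.

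Probe 11352 had contrasts of opposite sign in different pairs. In plots 6 and 9 it had -0.61 and -1.17 in August, against 0.04 and 0.21 in June, a contrast of -1.01 ± 0.40 (SE). In plots 11 and 12 it had -0.13 and -0.10 in August, against 1.05 on its single June array, a contrast of -1.17 ± 0.49. In plots 2 and 3 it had 0.64 on its single August array, against -0.52 and 0.30 in June, a contrast of 1.51 ± 0.64. This August array was turned and the June arrays were not. The contrast is adjusted for the fitted dye term, so it is larger than the plain difference of these values. The lowest adjusted p of these contrasts in limma was 0.535.

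Without regard to sign, the plot differences of Sod4A had their largest median size in August. June, JulyA, JulyB and August arrays had a median size of the Sod4A mean of 0.20, 0.22, 0.17 and 0.46. Over the other 124 symbols the medians were 0.31, 0.36, 0.33 and 0.25, with the lowest in August. Ranked among 125 symbols by this median, with 1 for the largest, Sod4A was number 107, 97, 100 and 28 at these times. Of its probe values, 8.44% from August were 1 or more in size, against 1.16% to 2.44% at the other times. Several of these August values share an array and so are not separate measurements. Probes on the August array of subplots 2 and 4 in plots 6 and 9 ran from -1.46 to 1.30. Those on the August array of subplot 1 in plots 7 and 10 ran from -1.66 to 1.08. The large values also include some of probes 5177 and 12500, which were seen only on August arrays. The spread over all probes of an array, as a mean robust SD, was 0.54 for June, 0.62 for JulyA, 0.61 for JulyB and 0.54 for August. These sizes were noticed in the data and carry no test. With each array centred on its median the size in June was 0.31, and that in August stayed at 0.46.

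Subplot 1 and subplots 2 and 4 of a pair lay on opposite sides of 0 in part of the combinations of pair and time. Of 16 combinations of pair and time with both, 12 had opposite signs in the turned ratios, 4 of 5 in August and 8 of 11 at the other times. As deposited, 9 of the 16 had, 2 of 5 in August and 7 of 11 at the other times, since 4 combinations hold a turned array. Subplot 1 was lower in 11 of the 16 turned and in 10 as deposited. Such counts were not made for other symbols, so they do not mark a trait of Sod4A. Some of the opposite signs rest on means near 0. Examples are 0.004 for subplots 2 and 4 in plots 2 and 3 in JulyB and 0.04 in plots 7 and 10 in June. In plots 6 and 9 in August, where no array was turned, the gap of subplot 1 minus subplots 2 and 4 was 0.83. In plots 7 and 10 in August it was -1.14 in the turned ratios and 0.07 as deposited, so its size rests on the turning of 1 array.

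In the linear model the contrast of subplot 1 minus subplots 2 and 4 took both signs. This model had no term for sampling time, so times that only one side had enter the contrast. In plots 4 and 5 only subplots 2 and 4 had an August array, at 0.46. In plots 13 and 15 only subplots 2 and 4 had a June array, at -0.46, and in August alone the gap there was 0.75. For plots 2 and 3 it was -0.07 ± 0.26 (SE), for plots 4 and 5 -0.32 ± 0.28, and for plots 6 and 9 it was 0.21 ± 0.26. For plots 7 and 10 it was -0.69 ± 0.37, for plots 11 and 12 it was 0.36 ± 0.37, and for plots 13 and 15 it was 0.88 ± 0.45. The 95% intervals of the largest estimates were -1.44 to 0.06 in plots 7 and 10 and -0.04 to 1.79 in plots 13 and 15, where subplot 1 was 1 array. As deposited with no dye term the contrast in plots 7 and 10 was -0.04, so its size there rests on the turning of 2 arrays.

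The F test of limma over the subplot contrasts gave Sod4A an unadjusted p of 0.150 and an adjusted p of 1.0, and 0 of 1293 features were called (0%). Whether the contrast differed between pairs was tested as well, with an unadjusted p of 0.0982 and an adjusted p of 0.9996 in limma. Of the 1293 features, 204 had a larger contrast in size than Sod4A in plots 7 and 10, 135 had in plots 13 and 15, and 1128 had in plots 2 and 3.

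**Figure D4:**
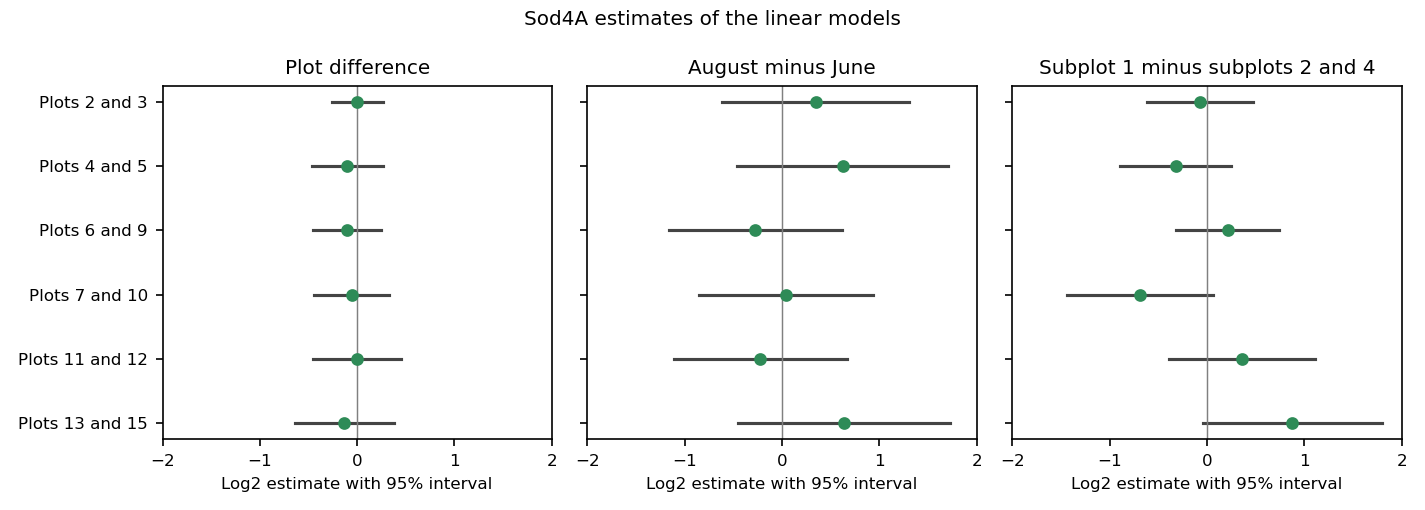
Estimates of the linear models for the Sod4A mean in each plot pair, with 95% intervals as bars: the ratio of the plots, its change as August minus June, and its change as subplot 1 minus subplots 2 and 4. In the fits drawn every interval includes 0, and the intervals that come closest to leaving it out are the subplot contrasts of plots 7 and 10 and of plots 13 and 15.

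Single Sod4A probes shared the sign of the subplot contrast in 4 pairs of the turned ratios. Of the 10 probes that could be fitted, 10 were negative in plots 7 and 10, with a median of -0.70, and 10 positive in plots 13 and 15, with a median of 1.09. Over all 1583 probes the medians were -0.02 and 0.07, with 48.4% and 57.4% positive. In plots 4 and 5 all 10 were negative with a median of -0.28, and in plots 6 and 9 all 10 positive with a median of 0.37, where 47.7% and 53.6% of all probes were positive. Probes of 1 gene on the same arrays share their RNA, so that these counts are not 10 separate measurements. In plots 4 and 5 subplot 1 had no August array, and in plots 13 and 15 it had no June array. With no term for sampling time in the fit, subplot and time cannot be told apart in these contrasts.

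In the F test over subplot contrasts 0 of the 10 probes were called, where 0 of 1583 were called (0%). An unadjusted p under 0.05 in limma was found for 2 of the 10, probe 5774 (unadjusted p = 0.0456, adjusted p = 1.0) and probe 10018 (unadjusted p = 0.0348, adjusted p = 1.0), beside 2.65% of all probes. In plots 7 and 10 alone there were 3 of 10, beside 2.65%, and in plots 13 and 15 3 of 10, beside 1.45%. In plots 4 and 5 there were 2 of 10, beside 1.2%, and in plots 6 and 9 0 of 10, beside 7.08%. The contrasts of plots 4 and 5 and of plots 13 and 15 compare unlike sets of sampling times. The lowest was probe 8120 in plots 7 and 10, with a contrast of -1.36 ± 0.48 (SE, unadjusted p = 0.00976, adjusted p = 0.997 in limma). This probe had -1.66 in August and -0.31 in June in subplot 1, against 0.48 and 0.26 in subplots 2 and 4. The August value of subplot 1 and the June value of subplots 2 and 4 were turned and had the other sign as deposited. The probe contrasts of plots 7 and 10 thus rest on that turning. In plots 13 and 15 probe 7673 had 0.81 in subplot 1 in August, against -0.47 in August and -0.68 in June in subplots 2 and 4, a contrast of 1.39 ± 0.59.

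Some codes of plot, subplot and letter recurred at later samplings. On 20 arrays 8 pairs of codes did so, and the Sod4A mean moved within each of them. The pair 61a and 91c had -0.08, -0.08, 0.22 and 0.27 over the 4 times, and the pair 64b and 94a had 0.35 in June, 0.06 in JulyA and -0.56 in August. The pair 42d and 54c had -0.20 in JulyA, 0.13 in JulyB and 0.46 in August. The values of 64b and 94a were lower at each later sampling, and those of 42d and 54c were higher at each.

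Of the pairs of codes met on 2 arrays, 21c and 31c had 0.24 in JulyA and -0.49 in JulyB, and 24b and 32d had -0.17 in August and 0.29 in JulyA. The pair 111c and 121c had -0.05 in August and 0.58 in June, the pair 112d and 122c had -0.00 and -0.19, and the pair 71a and 101c had -0.61 and -0.20. In the pairs 21c and 31c and 71a and 101c the later array was turned, and as deposited it had 0.49 and 0.61. The range within a pair of codes went from 0.18 for 112d and 122c to 0.90 for 64b and 94a. Over all 34 arrays the means ran from -0.61 to 0.58, with an SD of 0.335. A range over a few arrays and an SD over all of them are unlike measures and cannot be set against each other. With arrays of a shared code averaged first, the adjusted p of the pair estimates in limma was at least 0.682.

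The symbols whose array means ran most like Sod4A were known by locus number. Over 34 arrays LOC542260 had an uncentred correlation of 0.492 with the Sod4A mean, and LOC542476 one of 0.368. LOC542276 had 0.392 over 30 arrays, LOC541886 0.343 over 33 and LOC542737 0.310 over 32. At the other end were LOC542479 with -0.397 over 34 arrays, tua4, a tubulin alpha gene, with -0.388 over 33 and LOC542340 with -0.377 over 31. The median over 124 symbols was 0.046, and the points of each correlation share their arrays.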

How the data were processed

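The values came from the table that the authors deposited for 2-colour arrays of 36 samples. The deposited columns hold log10 ratios, as settled from the values: raised to base 10, between 82.8% and 99.2% of the values sampled per array were quotients of integers with denominators of at most 1000 (tolerance 6e-10), against at most 2% with base 2 or e. Not given in the sources used here were the scanner, background correction, normalization, filters and direction of the ratio. Per the labels, RNA was extracted with an RNeasy kit and labelled with a Genisphere kit. Values were converted to log2 here, and the 5 arrays with the lower-numbered plot in Cy3 were turned. Of the 36 arrays, 1 column held no value and 1 array named the same plant code in both channels, which left 34 with 2199 to 9530 values each and medians between -0.11 and 0.12.

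Features were symbols, as means over their probes on an array, and single probes without a symbol. A feature entered if it had values on 28 or more arrays, with 2 or more in every pair. Fits used limma 3.58.1 and R 4.3.3, and statmod 1.5.0 for the random block of pair and subplots, a dye term, and Benjamini-Hochberg adjustment over all features. The fit was tested on simulated data. Arrays were numbered within a pair in the order of the samples, and these numbers pair nothing. The 12 probes measured on at least 28 arrays were described singly, all 20 were accounted for, and the symbols named for likeness were the 5 highest and 3 lowest. The members and lists were chosen with earlier results of these data known. Alternatives covered the turning of ratios, dye term, centring, block, summary over probes, filters, shared codes and left-out arrays. The number of arrays limits the precision.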

Additional observations from a re-analysis of the deposited data

Results flagged for a closer look

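Among 57 groups of values of 1 plot pair on 4 to 10 arrays (Sod4A means, tested probes and numbers of measured probes), 3 held a value far from the rest. Chance alone gives about 1 in 20 such groups. Probe 1729 in plots 4 and 5 was highest on the JulyB array of subplots 2 and 4, at 0.391, with its other values in this pair between -0.41 and -0.07. Probe 5774 in the same pair was highest on the August array, at 1.56, with the next at 0.17. In plots 6 and 9 the number of Sod4A probes with a value was lowest on the June array of subplot 1, at 9. The share of all probes with a value on that array was 14.1%, and the part this played was not tested.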

How the results depend on the processing

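Sod4A stayed above the threshold under all alternatives run, with a lowest adjusted p of 0.682 in limma (plots 4 and 5, arrays of a shared code averaged). Before adjustment, limma's p fell under 0.05 in some subplot contrasts: the median over probes gave 1.002 in plots 13 and 15 (unadjusted p = 0.0369, adjusted p = 0.9985). Only probes measured on at least 28 arrays gave 1.03 there (unadjusted p = 0.0326, adjusted p = 0.998) and -0.79 in plots 7 and 10 (unadjusted p = 0.0438, adjusted p = 0.9996), and limma's test of equal contrasts an unadjusted p = 0.0471 (adjusted p = 0.9996). Without the August array of subplot 1 in plots 2 and 3, plots 13 and 15 had 0.88 (unadjusted p = 0.0455, adjusted p = 0.998 in limma). Signs of estimates near 0 changed. Ratios as deposited with no dye term gave 0.00715 in plots 2 and 3, 0.224 in plots 7 and 10 and -0.223 for August minus June in plots 2 and 3, and 56 probes of any gene were called over the pairs, against 0. Turned ratios with no dye term gave 0.0188 in plots 2 and 3. Centred arrays gave 0.00545 in plots 2 and 3 and -0.0246 in plots 11 and 12. The median over probes gave -0.0480 in plots 11 and 12 and -0.00467 for August minus June in plots 7 and 10, which was -0.0741 with only probes measured on at least 28 arrays. Arrays of shared codes averaged gave 0.0581 in plots 7 and 10 and -0.158 in plots 11 and 12. The causes were not tested. Leaving out 1 array at a time moved the pair estimates between -0.123 and 0.0829 (plots 2 and 3), -0.254 and 0.127 (7 and 10), -0.164 and 0.0961 (11 and 12) and -0.415 and 0.0861 (13 and 15). August minus June moved between -0.0151 and 1.08 (2 and 3), -0.690 and 0.141 (6 and 9), -0.757 and 0.834 (7 and 10) and -0.608 and 0.160 (11 and 12), and the subplot contrast of plots 2 and 3 between -0.269 and 0.136. The probes of any gene called over pairs then numbered 0 to 10, with 10 without the August array of subplots 2 and 4 in plots 11 and 12. The p of the number of Sod4A probes by time ran between 0.00928 and 0.103, and it was 0.486 without both June arrays of plots 11 and 12, an alternative chosen after seeing the data. No Sod4A probe had a value on all 34 arrays, so that filter gave no value for it. The tests took arrays with a shared code as separate samples.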

Other observations

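The array whose labels name 1 plant code for both channels, which belongs to no comparison, had values for 19 of the 20 Sod4A probes and for 13515 probes in all. The Sod4A probes ran from -3.06 to 0.87 in log2 as deposited, 13 positive and 6 negative, with a mean of -0.39. The 12 tested probes had a mean of -0.01, and 10 of them were positive. The median of all probes on this array was -0.40 and its robust SD 1.33, wider than on the 34 arrays compared.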
